A study of Mus musculus with 8 samples.

Results

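The TNF superfamily genes described here were 9 of the 54532 genes in the deposited count tables, chosen by name: the ligand genes Tnfsf9, Tnfsf10, Tnfsf12 and Tnfsf13b and the receptor genes Fas, Tnfrsf1a, Tnfrsf1b, Tnfrsf14 and Ltbr. Tnf itself was not among the 9. RNA-Seq was run on macrophages derived from bone marrow (BMDMs), grown for 7 days in medium with L929 cell supernatant from mice 6 to 8 weeks old. There were 4 groups of 2 libraries: wild-type BMDMs given DMSO (WT), Trex1-/- BMDMs given DMSO (Trex1-KO), Trex1-/- BMDMs given the STING antagonist H151 at 500 nM (Trex1-KO + H151) and Trex1-/- BMDMs given the STING antagonist SN-011 (Trex1-KO + SN-011), all for 12 h. A dose of SN-011 is not in the labels, and the methods of the study print the same figure for it as for H151 but with the unit written nm, so H151 and SN-011 were set side by side and not treated as dose-matched. All 4 groups shared the C57BL/6J background, and the antagonists were given only to Trex1-/- cells, so no group shows their action in WT cells. The study describes the libraries of a group as independent experiments, but the labels do not say whether they came from separate mice, so the tests measure the spread between these libraries.

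TREX1 is an exonuclease that degrades DNA in the cytosol. Where it is missing, self DNA can activate the sensor cGAS and the adaptor STING, which lead through the kinase TBK1 to IRF and NF-kappaB transcription factors and to type I interferon. TNF superfamily ligands act as trimers on receptors that either carry a death domain and can start apoptosis or necroptosis, as Fas and TNFR1 do, or bind TRAF adaptors and signal through NF-kappaB. Macrophages are a source of several of these ligands and carry many of the receptors.

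In Trex1-KO against WT, 3 of the 9 genes rose and 0 fell, with 6 not called: Tnfsf10, which encodes the apoptosis-inducing ligand TRAIL, Tnfsf13b, which encodes the B cell survival factor BAFF, and Tnfrsf14, which encodes the herpesvirus entry mediator HVEM. A call here is a false discovery rate (FDR) below 0.05 in edgeR's quasi-likelihood test, adjusted over all 14591 tested genes. Of all tested genes, 16.4% were called in this comparison, 9.27% as higher and 7.11% as lower. Under scaling by library totals alone the calls over all genes turned from 1352 higher and 1038 lower to 946 higher and 1598 lower, while the 3 members stayed higher. Both antagonists lowered Tnfsf10 and Tnfrsf14 against Trex1-KO, 2 of 9 in each comparison (the H151 call of Tnfrsf14 was lost under 6 of 12 other settings), where 2.23% of all genes were called with H151 (1.84% as lower) and 2.33% with SN-011 (2.22% as lower). Tnfsf13b was not called with either antagonist. The 2 Trex1-KO libraries stand in all of these comparisons.

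The 8 libraries held 11845470 to 17284863 counts, at which 3 counts equal 0.175 to 0.255 CPM, the counts scaled to a common library size. All 9 genes passed the filter on low counts. Trex1 had 0 counts in every library, WT included, and 100% of its 1147 exonic bases lie inside Atrip. Reads shared by genes were mostly not counted. Of genes with all exons inside those of other genes, 22 of 691 on the same strand and 2 of 453 on the opposite strand had any count. The genotype therefore rests on the labels. The 8 macrophage markers (among them Adgre1, Csf1r and Lyz2) summed to 30090 to 32360 CPM in the 8 libraries, most of it Lyz2 at 20300 to 23080. Of the 8, 3 were called higher in Trex1-KO, Fcgr1 (log2 1.14, FDR = 2.66e-07), Cd68 (0.44, FDR = 0.000208) and Adgre1 (0.19, FDR = 0.0249), and Fcgr1 was called lower with H151 (-0.50) and SN-011 (-0.49) against Trex1-KO. The 4 NK cell markers summed to at most 0.791 CPM and the 5 B cell markers to at most 5.18. The 6 T cell markers summed to 33.4 to 34.5 CPM in WT and 18.4 to 21.9 in the Trex1-/- groups. Nearly all of this was Cd4, which was called lower in Trex1-KO (log2 -0.68, FDR = 0.000329), and Cd3d, Cd3e and Cd3g did not pass the filter. The 5 dendritic cell markers summed to 4.54 to 6.45 CPM over all libraries. Of the 3 tested, Xcr1 was called higher in Trex1-KO, with 3 and 1 counts in WT and 16 and 15 in Trex1-KO (FDR = 0.00965). Zbtb46 went the other way and Itgax changed little (log2 -1.32, FDR = 0.0951, and 0.26, FDR = 0.596), neither of them called. The 6 fibroblast markers (Col1a1, Col1a2, Col3a1, Dcn, Pdgfra and Pdgfrb) summed to 2099 to 2300 CPM in WT, 862 to 1062 in Trex1-KO, 1105 to 1221 with H151 and 933 to 1123 with SN-011, and 5 of the 6 were called lower in Trex1-KO. The 6 neutrophil markers summed to 256 to 283 CPM in WT, 370 to 389 in Trex1-KO, 370 to 392 with H151 and 354 to 385 with SN-011, most of it Csf3r, which rose by 0.38 on the log2 scale in Trex1-KO (FDR = 0.00251). S100a8 and S100a9, the other two tested, rose 5.25-fold (FDR = 1.39e-05) and 7.41-fold (FDR = 8.28e-07) in Trex1-KO and were not called with either antagonist against it. The part of these markers in the differences between Trex1-KO and WT was not tested. In bulk RNA, fewer cells of a type and less RNA per cell cannot be told apart. The SN-011 libraries carry later record numbers and another treatment text than the other 6, and a batch limited to them cannot be told apart from SN-011.

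Promoter windows from RefSeq (build GRCm38.p6, 250 bases before to 50 after each annotated start) were found for 7 of the 9 genes, in 8 windows. Entries for Tnfsf9 and Tnfsf12 were not found in this table. The windows are shown for the 3 genes that rose in Trex1-KO and for Tnfrsf1b, an uncalled receptor with the same motif. Capitals mark matches on either strand to GAAANNGAAA, the core of the interferon-stimulated response element (ISRE), or to the IRF-type element AANNGAAA. Every ISRE core contains AANNGAAA as its last 8 letters. The motifs were chosen after the windows and the expression results had been seen.
Tnfsf10, chr3:27316827-27317126, + strand: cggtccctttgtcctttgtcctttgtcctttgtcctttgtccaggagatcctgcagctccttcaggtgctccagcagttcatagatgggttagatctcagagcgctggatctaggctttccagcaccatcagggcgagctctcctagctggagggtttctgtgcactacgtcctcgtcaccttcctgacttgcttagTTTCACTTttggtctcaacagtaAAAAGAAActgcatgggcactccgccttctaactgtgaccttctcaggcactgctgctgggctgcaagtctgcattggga
Tnfsf13b, second start, chr8:10006383-10006682, + strand: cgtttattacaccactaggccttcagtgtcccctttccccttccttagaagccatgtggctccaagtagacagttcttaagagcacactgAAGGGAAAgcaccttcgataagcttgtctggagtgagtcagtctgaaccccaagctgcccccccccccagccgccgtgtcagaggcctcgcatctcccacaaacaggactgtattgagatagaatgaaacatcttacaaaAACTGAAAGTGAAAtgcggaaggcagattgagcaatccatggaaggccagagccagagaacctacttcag
Tnfrsf14, chr4:154928028-154928327, - strand: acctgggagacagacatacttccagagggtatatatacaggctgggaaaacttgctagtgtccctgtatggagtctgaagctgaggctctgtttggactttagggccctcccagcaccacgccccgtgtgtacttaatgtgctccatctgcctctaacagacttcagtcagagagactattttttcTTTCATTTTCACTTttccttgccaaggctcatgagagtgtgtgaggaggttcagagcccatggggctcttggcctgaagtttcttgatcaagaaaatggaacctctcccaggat
Tnfrsf1b, chr4:145246821-145247120, - strand: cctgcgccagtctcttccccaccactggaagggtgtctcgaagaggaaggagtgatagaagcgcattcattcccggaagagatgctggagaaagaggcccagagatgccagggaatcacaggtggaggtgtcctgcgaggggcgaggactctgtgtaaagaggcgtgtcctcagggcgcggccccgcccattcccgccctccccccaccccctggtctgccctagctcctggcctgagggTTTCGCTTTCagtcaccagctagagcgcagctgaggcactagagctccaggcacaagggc
The ISRE core was in the windows of 3 of the 7 genes, Tnfsf13b (at its second start only), Tnfrsf14 and Tnfrsf1b, and in 3.44% of the 32851 windows of all genes. The match began 16 bases before the start in Tnfsf13b, 64 before it in Tnfrsf14 and 10 before it in Tnfrsf1b. The window of Tnfrsf14 lies inside the gene as annotated for the counts (154921933 to 154928563), so its distance holds for the RefSeq start only. Tnfsf10 had no ISRE core but 2 matches to AANNGAAA, at 53 and 30 bases before the start. AANNGAAA was held by 5 of the 7 genes, among them by definition the 3 with an ISRE core, and by 23.9% of all windows. TTCNNNGAA, the form bound by STAT dimers (GAS), was in the windows of Fas, Tnfrsf1a and Tnfrsf1b, 3 of 7 genes, and in 8.3% of all windows. The kappaB consensus of NF-kappaB was in 0 of the 7 genes and in 8.46% of all windows. The members are counted by gene, with 2 windows for Tnfsf13b, and the shares over all genes by single window (32851 windows of 27025 genes), so these figures are in unlike units. These matches describe letters in 300-base windows, and no binding was measured.

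Levels between genes were compared as CPM per kb of exon not shared with another gene. Tnfrsf1b, which encodes TNFR2, was the highest of the 9 in every group, at 146 ± 7.6 CPM per kb in WT and 159 ± 3.7 in Trex1-KO (SD, n = 2). Tnfrsf1a, which encodes TNFR1, followed at 58.5 to 67.2 CPM per kb over the 4 group means. Tnfsf12, which encodes the ligand TWEAK, came next at 41.8 to 45.8 CPM per kb and the highest ligand. Ltbr and Tnfrsf14 stood below it and overlapped in WT, at 29.1 ± 0.7 and 28.2 ± 0.8 CPM per kb (SD, n = 2). In Trex1-KO Tnfrsf14 stood above Ltbr, at 37.2 ± 1.7 against 29.2 ± 0.4 CPM per kb, and with either antagonist it was again below it.

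Fas lay below these, at 4.78 to 5.68 CPM per kb over the group means. Tnfsf9 and Tnfsf10 changed places between groups, with Tnfsf10 at 1.01 CPM per kb in WT and 4.06 in Trex1-KO and Tnfsf9 at 1.59 and 1.82, and they overlapped with H151. Tnfsf13b was the lowest in all 4 groups, at 0.256 to 0.529 CPM per kb. The exon lengths are the union over annotated transcripts, so levels of genes with long, little-used exons are understated on this scale. For Tnfsf12 the scale rests on 784 of its 1515 exonic bases, because 48.3% are shared with the readthrough gene Tnfsfm13, and with all exons counted its WT level is 21.8 CPM per kb.

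**Figure D1:**
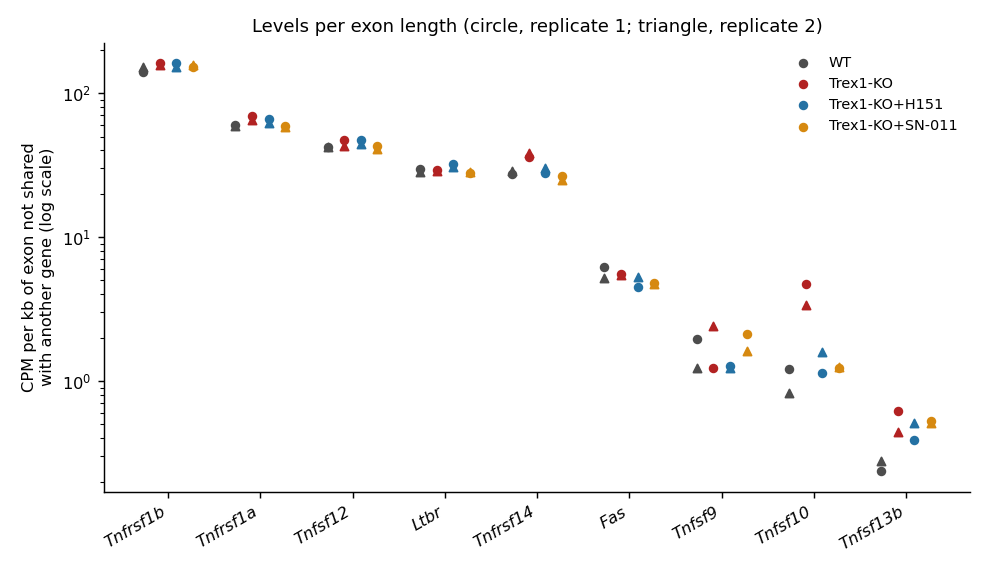
Level of each gene in CPM per kb of unshared exon (log axis) in the 8 libraries, with genes in the order of their WT means. Colours mark the 4 groups, circles replicate 1 and triangles replicate 2. The red Trex1-KO points of Tnfsf10 stand above those of the other groups, and the grey WT points of Tnfsf13b stand below them.

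Among the 4 member ligands, Tnfsf10 (ENSMUSG00000039304, chromosome 3, 27317028 to 27342427, + strand, mm10) had the largest difference between Trex1-KO and WT. Its CPM values were 6.33 and 4.34 in WT, 25.1 and 17.7 in Trex1-KO, 6.03 and 8.40 with H151 and 6.46 and 6.54 with SN-011. Both Trex1-KO libraries stood above all 6 others, and the antagonist libraries lay close to WT. In counts this was 64 to 86 in WT against 268 to 332 in Trex1-KO. Its Trex1-KO level was 4.01-fold the WT level (log2 fold change 2.00 ± 0.22 SE, edgeR FDR = 2.27e-05). With H151 it was 0.342 times the Trex1-KO level (log2 -1.55, 95% interval -2.01 to -1.09, FDR = 0.000772), and with SN-011 0.305 times (log2 -1.71, -2.17 to -1.25, FDR = 0.000413). Against WT, the level with H151 differed by 0.45 on the log2 scale (95% interval -0.076 to 0.98, FDR = 0.287) and with SN-011 by 0.29 (-0.24 to 0.82, FDR = 0.558), neither of them called. All 3 calls of Tnfsf10 held under each alternative setting and without any single library.

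Tnfsf13b (ENSMUSG00000031497, chromosome 8, 10006467 to 10039072, + strand) was measured from 22 to 62 counts per library. Its CPM values were 1.62 and 1.90 in WT, 4.23 and 3.03 in Trex1-KO, 2.69 and 3.49 with H151 and 3.61 and 3.48 with SN-011. Each of the 6 Trex1-/- libraries lay above both WT libraries, with or without an antagonist. Its Trex1-KO level was 2.04-fold the WT level (log2 1.03 ± 0.29 SE, edgeR FDR = 0.025). The difference from Trex1-KO was -0.21 with H151 (95% interval -0.79 to 0.36, FDR = 0.927) and -0.024 with SN-011 (-0.58 to 0.54, FDR = 0.984). Against WT, Tnfsf13b was called higher with SN-011 (log2 1.01 ± 0.29 SE, FDR = 0.0363) and not called with H151 (log2 0.82 ± 0.29 SE, FDR = 0.0974). The call in Trex1-KO was lost with DESeq2 (adjusted p = 0.0824) and without WT replicate 1 (FDR = 0.153), WT replicate 2 (0.081) or Trex1-KO replicate 1 (0.211), and that of SN-011 against WT with DESeq2 (adjusted p = 0.127) and without any 1 of its 4 libraries (FDR 0.103 to 0.21).

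Tnfsf12 (ENSMUSG00000097328, chromosome 11, 69686250 to 69695849, - strand) was measured at 32.9 and 33.2 CPM in WT, 37.3 and 33.4 in Trex1-KO, 37.1 and 34.7 with H151 and 33.5 and 32.0 with SN-011. The groups lay within a narrow range, and Tnfsf12 was not called in any of the 6 comparisons. The difference between Trex1-KO and WT was 0.097 on the log2 scale, with a 95% interval of -0.10 to 0.29. Reads in the exons Tnfsf12 shares with Tnfsfm13 were taken as not counted for it, and Tnfsfm13 itself had 64 to 135 counts per library.

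Tnfsf9 (ENSMUSG00000035678, chromosome 17, 57105325 to 57107757, + strand), which encodes the T cell costimulator 4-1BB ligand, was near the lower end of measurement at 17 to 40 counts per library. Its CPM values were 2.14 and 1.36 in WT, 1.36 and 2.64 in Trex1-KO, 1.39 and 1.34 with H151 and 2.33 and 1.78 with SN-011. The WT and Trex1-KO libraries overlapped, and the replicates of Trex1-KO differed by more than the group means did. The log2 difference of 0.22 between Trex1-KO and WT had a 95% interval of -0.61 to 1.04, the widest of the 9 in this comparison. An overlap with Gm11110 was taken to remove 14.9% of the exonic bases of Tnfsf9 from counting.

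**Figure D2:**
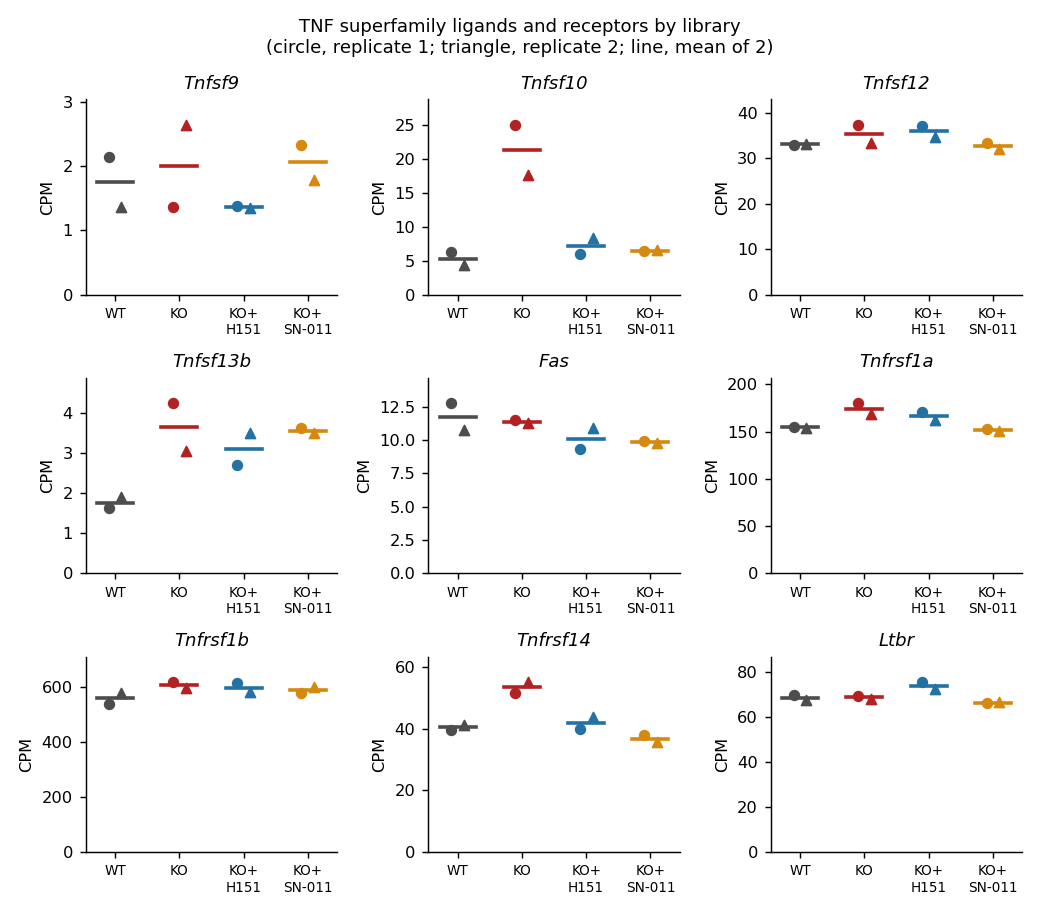
CPM of the 9 genes in each library, with linear axes from 0 that differ between panels. Circles are replicate 1, triangles replicate 2 and lines the mean of the 2 libraries. Tnfsf10 and Tnfrsf14 are highest in the 2 Trex1-KO libraries, and Tnfsf13b is lowest in the 2 WT libraries.

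Among the receptors, Tnfrsf14 (ENSMUSG00000042333, chromosome 4, 154921933 to 154928563, - strand) followed the direction of Tnfsf10 at a smaller size. Its CPM values were 39.7 and 41.3 in WT, 51.7 and 55.2 in Trex1-KO, 39.9 and 43.7 with H151 and 37.9 and 35.6 with SN-011. Both Trex1-KO libraries stood above the other 6, 1 H151 library lay inside the WT range and 1 above it, and both SN-011 libraries lay below WT. Its Trex1-KO level was 1.32-fold the WT level (log2 0.40 ± 0.08 SE, edgeR FDR = 0.0044). It fell by 0.35 on the log2 scale with H151 (95% interval -0.53 to -0.17, FDR = 0.0466) and by 0.54 with SN-011 (-0.72 to -0.35, FDR = 0.0025). Against WT the differences were 0.046 with H151 (FDR = 0.803) and -0.14 with SN-011 (FDR = 0.388). The call with H151 was lost under scaling by library totals (FDR = 0.0676), with DESeq2 (adjusted p = 0.0959), in a fit of the 2 groups alone (0.155) and without Trex1-KO replicate 1 (0.0898), Trex1-KO replicate 2 (0.36) or H151 replicate 1 (0.317). The call in Trex1-KO was lost without WT replicate 1 (FDR = 0.0623), and the call with SN-011 was lost without SN-011 replicate 2 (FDR = 0.0566).

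The other 4 receptors were not called in any of the 6 comparisons. Fas (ENSMUSG00000024778, chromosome 19, 34290666 to 34327772, + strand) had CPM values of 12.7 and 10.7 in WT, 11.5 and 11.3 in Trex1-KO, 9.29 and 10.9 with H151 and 9.95 and 9.77 with SN-011. The WT libraries enclosed those of Trex1-KO, and all 4 antagonist libraries lay below both Trex1-KO libraries. The log2 difference was -0.042 in Trex1-KO against WT (95% interval -0.36 to 0.28), -0.17 with H151 against Trex1-KO (-0.49 to 0.16) and -0.20 with SN-011 (-0.53 to 0.12).

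Tnfrsf1a (ENSMUSG00000030341, chromosome 6, 125349362 to 125362484, + strand) was measured at 155 and 154 CPM in WT, 180 and 168 in Trex1-KO, 171 and 162 with H151 and 153 and 150 with SN-011. The Trex1-KO libraries stood above WT and SN-011 and overlapped with H151. The difference in Trex1-KO was 0.17 on the log2 scale (95% interval 0.04 to 0.30, unadjusted p = 0.0142 in edgeR, FDR = 0.0755), and with SN-011 it was -0.20 (-0.33 to -0.068, unadjusted p = 0.00586, FDR = 0.148). Neither passed the threshold over all genes.

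Tnfrsf1b (ENSMUSG00000028599, chromosome 4, 145213463 to 145246870, - strand) had 538 and 579 CPM in WT, 618 and 598 in Trex1-KO, 616 and 580 with H151 and 578 and 599 with SN-011. These were 7052 to 9931 counts per library, the most of the 9 genes, and H151 and SN-011 overlapped with Trex1-KO. The difference in Trex1-KO had a 95% interval of 0 to 0.25 on the log2 scale (estimate 0.12, edgeR FDR = 0.185), and those with H151 and SN-011 were -0.024 (-0.15 to 0.099) and -0.048 (-0.17 to 0.075).

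Ltbr (ENSMUSG00000030339, chromosome 6, 125306571 to 125313885, - strand), whose product, the lymphotoxin beta receptor, signals through noncanonical NF-kappaB, was measured at 69.6 and 67.2 CPM in WT, 69.3 and 68.0 in Trex1-KO, 75.4 and 72.1 with H151 and 65.9 and 66.4 with SN-011. WT enclosed Trex1-KO, H151 lay above all other groups and SN-011 below them. The difference between Trex1-KO and WT was 0.006 on the log2 scale (95% interval -0.14 to 0.15).

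**Figure D3:**
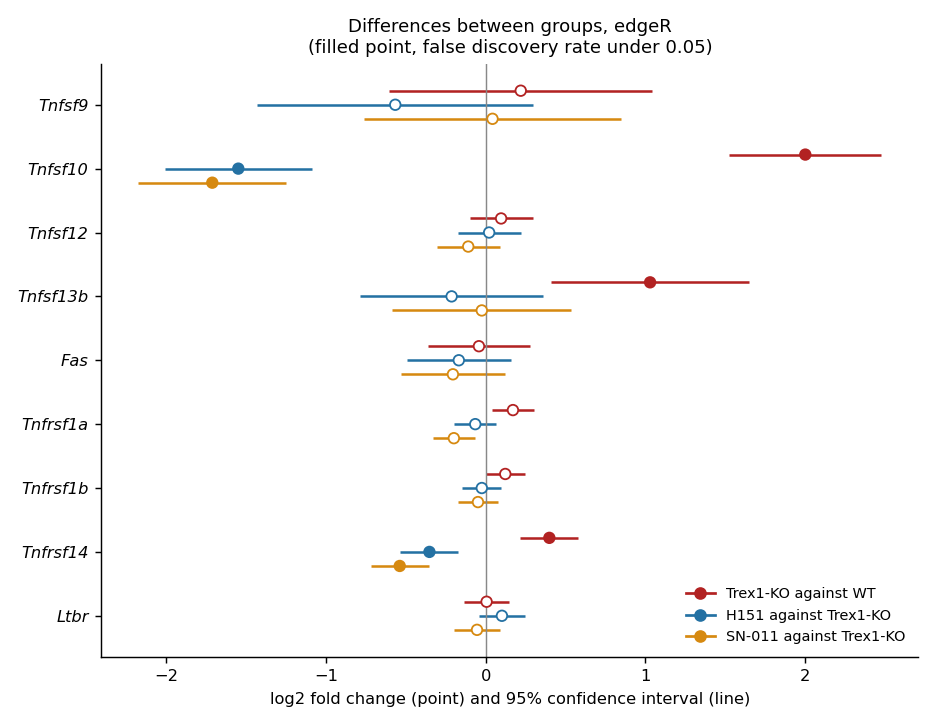
Log2 fold change of each gene with its 95% confidence interval in Trex1-KO against WT (red), H151 against Trex1-KO (blue) and SN-011 against Trex1-KO (orange), where filled points passed an FDR of 0.05. Tnfsf10 and Tnfrsf14 are filled in all 3 comparisons, on the right for Trex1-KO and on the left for the antagonists, while Tnfsf13b is filled only for Trex1-KO. The 3 comparisons share the Trex1-KO libraries.

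Over the 9 genes, the median log2 difference was 0.17 in Trex1-KO against WT, beside -0.002 over all tested genes, and -0.17 with H151 and -0.11 with SN-011 against Trex1-KO, beside 0.0012 and 0.0088. The libraries of Trex1-KO and WT did not overlap for 6 of the 9 genes, all higher, and 28.6% of all genes were higher without overlap there. With H151 4 of the 9 did not overlap with Trex1-KO (3 lower, Ltbr higher), where 17.9% of all genes were lower and 17.5% higher without overlap, and with SN-011 5 of 9, all lower, against 21.6% of all genes.

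H151 and SN-011 were also compared directly. In this comparison 0 of the 9 genes were called by edgeR, DESeq2 or edgeR's exact test, with 2 at an unadjusted p below 0.05, and 0.158% of all genes were called. The log2 difference of SN-011 from H151 was -0.16 for Tnfsf10 (95% interval -0.68 to 0.35), 0.19 for Tnfsf13b (-0.38 to 0.76) and -0.18 for Tnfrsf14 (-0.37 to 0.001). The 2 genes past the unadjusted threshold were Tnfrsf1a at -0.13 (-0.27 to -0.003, FDR = 0.557) and Ltbr at -0.16 (-0.30 to -0.013, FDR = 0.536), both lower with SN-011. Tnfsf9 had the largest difference of the 9, higher in both SN-011 libraries (0.61, -0.25 to 1.47, FDR = 0.689). The intervals of Tnfsf9, Tnfsf10 and Tnfsf13b contain differences by a factor above 1.5. Against WT, 0 of the 9 were called with H151 by any of the 3 tests (1 at an unadjusted p below 0.05, 11.8% of all genes called) and 1 with SN-011, Tnfsf13b (11.7% of all genes called).

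The genes whose pattern over the 4 groups was most like that of a called member were sought among 10653 genes by the root mean square (RMS) difference of centred log2 CPM. For Tnfsf10 these were Mx1, Cmpk2 (which encodes a mitochondrial nucleotide kinase) and Ifit3b, with RMS differences of 0.156, 0.161 and 0.175. Mx1 averaged 59.0 CPM in WT, 261 in Trex1-KO, 80.1 with H151 and 93.6 with SN-011. Ifit3b is close in sequence to Ifit3, and how reads were split between them is uncertain. For Tnfsf13b they were Cd300lf, Nusap1 and Cd200r4 (0.030, 0.035 and 0.049), and Cd300lf, a myeloid surface receptor, averaged 43.7 CPM in WT, 83.3 in Trex1-KO, 70.6 with H151 and 80.5 with SN-011. For Tnfrsf14 they were Tnip1, Gm35339 and Gm16712 (0.021, 0.028 and 0.033), and Tnip1, which encodes a partner of the ubiquitin-editing enzyme A20, averaged 56.5, 72.6, 59.0 and 51.5 CPM in the same order. The likeness rests on 4 group means only.

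The binding partners of the 9 products were taken from the lists of other family members, and those outside the calls below were named after their values had been seen. Tnfrsf10b, the TRAIL death receptor of the mouse, was measured at 7.51 and 6.44 CPM in WT, 5.13 and 3.56 in Trex1-KO, 3.99 and 3.96 with H151 and 3.14 and 3.74 with SN-011. All 6 Trex1-/- libraries lay below both WT libraries, and Tnfrsf10b was called lower than WT in Trex1-KO (log2 -0.69 ± 0.22 SE, edgeR FDR = 0.0487), with H151 (-0.81, FDR = 0.0314) and with SN-011 (-1.03, FDR = 0.00828). It was not called with either antagonist against Trex1-KO (FDR = 0.969 and 0.619). The call in Trex1-KO was lost with DESeq2 (adjusted p = 0.169), in a fit of the 2 groups (0.0526) and without WT replicate 1 (0.238), WT replicate 2 (0.0835) or Trex1-KO replicate 2 (0.315). For Tnfrsf10b against WT, the H151 call was lost with DESeq2 (adjusted p = 0.0961) and without any 1 of its 4 libraries (0.0635 to 0.188), and the SN-011 call without WT replicate 1 (0.0758) or SN-011 replicate 1 (0.105). Tnfrsf22 and Tnfrsf23, which encode decoy receptors for TRAIL, were not called in Trex1-KO (FDR = 0.735 and 0.544). Tnfrsf11b, the soluble decoy osteoprotegerin, which binds RANKL and TRAIL, fell from 32.8 and 24.3 CPM in WT to 9.58 and 9.50 in Trex1-KO (log2 -1.58, FDR = 2.47e-05). Tnfrsf12a, the TWEAK receptor Fn14, fell from 30.5 and 28.7 to 12.6 and 13.6 CPM (log2 -1.17, FDR = 5.63e-05), while its ligand Tnfsf12 was not called. These genes fell together with the fibroblast markers given above, and the part of those markers was not tested.

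Fasl, the ligand of Fas, had 0 counts in all 8 libraries, which allows up to 0.175 to 0.255 CPM by library. Of the BAFF receptors, Tnfrsf13b, which encodes TACI, was at 46.6 to 54.4 CPM and not called in Trex1-KO (FDR = 0.655), Tnfrsf13c, which encodes the BAFF receptor proper, had 0 counts throughout and Tnfrsf17 had 0 to 5. Tnfrsf9, the receptor of the Tnfsf9 product, had 1 and 7 counts in WT and 19 and 10 in Trex1-KO and was not called (FDR = 0.0928). Tnfsf14, a ligand shared by Tnfrsf14 and Ltbr, had 19 to 51 counts and was not called (FDR = 0.884), and Lta and Ltb, with at most 3 and 12 counts, did not pass the filter.

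Counts of the 4 lists below stand beside 9.27% of all genes called higher and 7.11% lower in Trex1-KO, with a median log2 difference of -0.002. Of the 14 other ligands 7 were tested, and in Trex1-KO 2 rose and 1 fell, with a median of 0.32 on the log2 scale. Tnf was at 7.14 and 2.44 CPM in WT, 18.5 and 16.2 in Trex1-KO, 7.74 and 8.26 with H151 and 6.46 and 5.27 with SN-011. Both Trex1-KO libraries stood above all others, though the WT replicates differed widely. Tnf rose in Trex1-KO (log2 1.87 ± 0.30 SE, edgeR FDR = 0.000575) and fell with SN-011 (-1.55, FDR = 0.00943), and the difference with H151 was -1.11 (FDR = 0.0659). The direct difference of SN-011 from H151 was -0.435 (FDR = 0.715), not called. Of the 7 ligands, Tnf was the 1 called with SN-011, beside 2.22% of all genes called lower. With H151 0 were called, beside 1.84%. Without WT replicate 1 the log2 difference of Tnf in Trex1-KO was 2.81, and without WT replicate 2 it was 1.26, both called. The call with SN-011 was lost with DESeq2 (adjusted p = 0.0903) and without SN-011 replicate 1 (0.108) or replicate 2 (0.144). Tnfsf8, the CD30 ligand, had 1 and 0 counts in WT and 51 and 41 in Trex1-KO, a ratio of 91.7 by counts with an exact 95% counting interval of 16.1 to 3663 (edgeR FDR = 1.96e-05), and 19 to 25 counts with either antagonist, not called against Trex1-KO. Eda, the ligand ectodysplasin, fell from 13 and 20 counts to 6 and 4 (FDR = 0.0489). That call was lost with DESeq2 (adjusted p = 0.196), with the replicate number as a block (0.0547) and without any 1 of the 4 libraries (0.0939 to 0.283).

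Of the 23 other receptors 17 were tested, and in Trex1-KO 2 rose and 4 fell, with a median of -0.16, beside 9.27% higher and 7.11% lower over all genes. Cd40, a costimulatory receptor of antigen-presenting cells, was at 16.3 and 11.4 CPM in WT, 30.1 and 24.9 in Trex1-KO, 14.4 and 15.7 with H151 and 15.2 and 16.9 with SN-011. It rose in Trex1-KO (log2 0.99 ± 0.16 SE, FDR = 0.000549). Cd40 was the 1 receptor of the 17 tested called with H151 (-0.87, FDR = 0.00739), beside 1.84% of all genes called lower, and with SN-011 (-0.78, FDR = 0.0149), beside 2.22%. Its H151 call was lost without Trex1-KO replicate 1 (0.0623), and its SN-011 call without Trex1-KO replicate 1 (0.128) or SN-011 replicate 1 (0.257) or 2 (0.0782). Tnfrsf11a, which encodes RANK, rose by 0.44 on the log2 scale in Trex1-KO (FDR = 0.000343). Besides the 3 partners above, Eda2r, a receptor of ectodysplasin A2, fell by 1.33 (FDR = 0.0133), a call lost without any 1 of the 4 libraries (0.0513 to 0.0803).

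All 18 genes of death receptor signalling were tested, and in Trex1-KO 5 rose and 0 fell, with a median of 0.15, beside 9.27% higher, 7.11% lower and a median of -0.002 over all genes. Mlkl, the pore-forming executor of necroptosis, rose most, from 15.0 and 17.3 CPM in WT to 26.8 and 30.9 in Trex1-KO (log2 0.83 ± 0.14 SE, FDR = 0.000752). It was at 17.1 and 22.5 CPM with H151 and 19.6 and 20.6 with SN-011, differences of -0.54 and -0.53 that were not called (FDR = 0.0667 and 0.0669). Rnf31, the catalytic subunit of the linear ubiquitin ligase LUBAC, rose by 0.49 (FDR = 0.000289) and fell by 0.32 with H151 (FDR = 0.0351). It was the 1 gene of this list called with H151, beside 1.84% of all genes called lower. Its difference with SN-011 was -0.26 (FDR = 0.0944), and the direct difference of SN-011 from H151 was 0.057 (FDR = 0.852), neither of them called. Rnf31 shares 2.15% of its exonic bases with Irf9. Birc3, which encodes cIAP2, Bid, a BH3-only protein cut by caspase-8, and Cflar, which encodes the caspase-8 inhibitor cFLIP, rose by 0.40, 0.33 and 0.23 (FDR = 0.0103, 0.0209 and 0.0127).

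With SN-011, 3 of the 18 genes of death receptor signalling were called lower, beside 2.22% of all genes. Birc3 fell by 0.56 (FDR = 0.00506), Cflar by 0.26 (FDR = 0.029) and Tnfaip3, which encodes A20, by 0.64 (FDR = 0.0166). With H151 the differences of the same genes were -0.23 (FDR = 0.421), -0.22 (FDR = 0.0777) and -0.50 (FDR = 0.074), none of them called, and the direct differences of SN-011 from H151 were -0.33 (FDR = 0.364), -0.04 (FDR = 0.875) and -0.14 (FDR = 0.783), also not called. The initiators Casp8, Fadd, Tradd and Ripk1 were not called in Trex1-KO, with log2 differences between -0.088 and 0.085. Of the 9 TRAF adaptors and noncanonical NF-kappaB genes, 2 rose in Trex1-KO, Traf1 and Relb, beside 9.27% of all genes. With each antagonist 2 of the 9 were called lower, beside 1.84% of all genes with H151 and 2.22% with SN-011. All 3 comparisons hold the same 2 Trex1-KO libraries, so their counts are not independent of each other. Traf1 was at 12.3 and 9.29 CPM in WT, 28.8 and 25.8 in Trex1-KO, 19.7 and 16.8 with H151 and 15.2 and 15.5 with SN-011. It rose by 1.34 ± 0.14 SE (FDR = 1.72e-05) and fell by 0.58 with H151 (FDR = 0.0414) and by 0.83 with SN-011 (FDR = 0.00376). Relb rose by 0.34 (FDR = 0.0231) and fell by 0.45 (FDR = 0.0226) and 0.58 (FDR = 0.0034).

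Several of these calls were lost under some settings or without some libraries, with their direction kept. In Trex1-KO, the call of Cflar was lost under library totals (FDR = 0.109) and without WT replicate 1, WT replicate 2 or Trex1-KO replicate 1 (0.0598 to 0.142), that of Bid under library totals (0.0834), with DESeq2 (0.089) and without any 1 of the 4 libraries (0.0735 to 0.153), that of Birc3 without WT replicate 2 (0.167) or Trex1-KO replicate 1 (0.123), and that of Relb under library totals (0.0786) and without WT replicate 2 or either Trex1-KO replicate (0.0621 to 0.314). With H151, the calls of Rnf31 and Traf1 were lost under library totals (0.0568 and 0.0558), in fits of the 2 groups (0.125 and 0.0672) and, for Rnf31, with DESeq2 (0.0812). Without 1 library, they were lost for Rnf31 without either Trex1-KO replicate or H151 replicate 1 (0.153 to 0.223), for Traf1 without either Trex1-KO replicate or H151 replicate 2 (0.0675 to 0.234) and for Relb without any 1 of the 4 libraries (0.0501 to 0.0968). With SN-011, they were lost for Cflar under library totals (0.0663) and without any 1 of the 4 libraries (0.0746 to 0.32), for Birc3 without Trex1-KO replicate 1 (0.0524) or SN-011 replicate 2 (0.111), for Tnfaip3 without Trex1-KO replicate 1 or either SN-011 replicate (0.09 to 0.256), for Traf1 without SN-011 replicate 1 (0.0854) and for Relb without either SN-011 replicate (0.0722 and 0.0545).

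**Figure D4:**
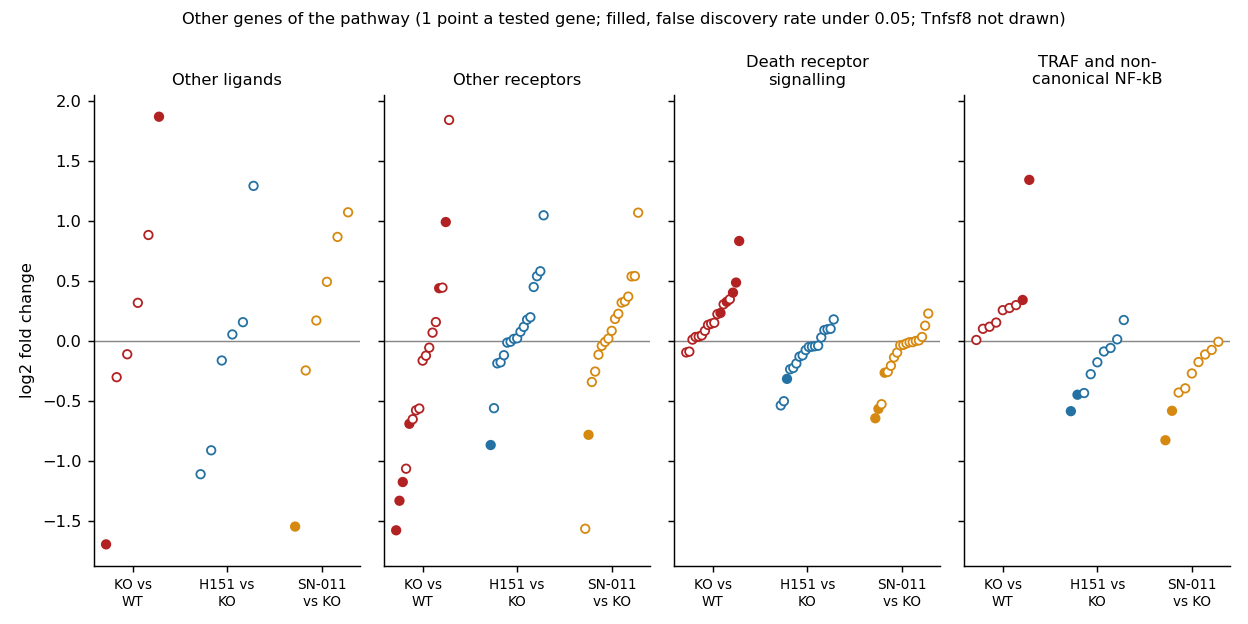
Log2 fold change of each tested gene of the 4 pathway lists in 3 comparisons, 1 point a gene, ordered by value within a comparison, where filled points passed an FDR of 0.05. Tnfsf8, with 1 count over both WT libraries, is not drawn. Filled points in Trex1-KO lie on both sides of 0 for ligands and receptors and above 0 for the 2 signalling lists, and all filled points of the antagonists lie below 0.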

How the data were processed

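BMDM polyA+ RNA was sequenced as paired reads in 8 libraries. Per the study's methods the authors trimmed reads with Trimmomatic, mapped them with hisat2 and counted uniquely mapped pairs per gene with featureCounts, while the submitters' processing notes name HISAT2, HTSeq and build mm10. Versions and the strand setting of the counting are not given in the sources used here. The deposited values are raw counts per Ensembl gene. Gene names, positions and exon lengths came from GENCODE mouse release 21, where 54495 of the 54532 identifiers were found.

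Counts were tested in R 4.3.3 with edgeR 4.0.16 (TMM factors, filterByExpr with a minimum count of 10, quasi-likelihood test, 1 mean per group over all 8 libraries, Benjamini-Hochberg adjustment over 14591 genes, two-sided). CPM used TMM-scaled totals. The script was tested on simulated data. Replicates differed by more than sampling noise in every group (chi-square over degrees of freedom 3.16 to 6.28), so none was counted as a duplicate. Alternatives were library totals, RLE factors, other filters, DESeq2 1.42.0, the exact test, 2-group fits, the replicate number as a block and leaving out each library.

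The 9 genes were named in every case. Of 4 lists of other pathway genes, those called in Trex1-KO against WT or with an antagonist against Trex1-KO were named, at most 8 a list by size of change, with Tnf, Fasl and Tnfrsf10b. Casp8, Fadd, Tradd and Ripk1 were named outside this rule, as were the binding partners named after their values had been seen. The 3 genes nearest in pattern were named for each called member. Members and lists were chosen with earlier results of these data known.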

Additional observations from a re-analysis of the deposited data

How the results depend on the processing

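The calls of Tnfsf10 in Trex1-KO and with both antagonists held under all settings tried, and those of Tnfsf13b and Tnfrsf14 were lost as given above. Why calls were lost was not tested. The number of the 9 genes called in Trex1-KO against WT was 1 to 3 when 1 library was left out, with H151 against Trex1-KO 1 to 2, with SN-011 against Trex1-KO 1 to 2, and with SN-011 against WT 0 to 0. With H151 against Trex1-KO it was 1 under library totals, 1 with DESeq2 and 1 in a fit of the 2 groups, and with SN-011 against WT it was 0 with DESeq2. Over all genes, 1 left-out library gave 1556 to 1933 calls for Trex1-KO against WT, 131 to 302 for SN-011 against Trex1-KO, 2 to 291 for SN-011 against H151, 971 to 1772 for H151 against WT and 909 to 1159 for SN-011 against WT. A filter at 1 count raised the calls to 525 with H151 and 679 with SN-011 against Trex1-KO and to 266 for SN-011 against H151, which had 23 calls as reported, 41 with DESeq2, 84 with the exact test and 44 with the replicate block. A lone library left in a group was assumed to vary like the other groups.

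Signs turned only for uncalled differences. Scaling by library totals moves all genes of a comparison by about the same amount (the median of all genes in Trex1-KO against WT went from -0.002 to -0.0868), and the near-zero differences that changed sign under it moved with that shift. These were Ltbr in Trex1-KO against WT (-0.079, and -0.009 with a filter at 1 count), Tnfrsf1b with H151 (0.001), Tnfsf13b with SN-011 (0.004) and Tnfrsf14 with H151 against WT (-0.014). With 1 library left out the log2 differences of Trex1-KO from WT ran from -0.18 to 0.072 for Fas, -0.35 to 0.59 for Tnfsf9 and -0.031 to 0.021 for Ltbr. With H151 against Trex1-KO they ran from -0.44 to 0.037 for Tnfsf13b, -0.066 to 0.018 for Tnfrsf1b, -0.95 to 0.007 for Tnfsf9 and -0.055 to 0.10 for Tnfsf12. With SN-011 against Trex1-KO they ran from -0.34 to 0.61 for Tnfsf9 and -0.25 to 0.23 for Tnfsf13b. With SN-011 against H151 they ran from -0.068 to 0.022 for Tnfrsf1b, -0.37 to 0.11 for Tnfsf10 and -0.14 to 0.086 for Fas. Against WT they ran from -0.032 to 0.097 for Tnfrsf14 with H151, and from -0.044 to 0.61 for Tnfsf9 and -0.046 to 0.007 for Tnfsf12 with SN-011.

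The titles give groups the same replicate numbers without saying what a number stands for. Same-numbered libraries of Trex1-KO and Trex1-KO + H151 deviated together with a correlation of 0.194 over genes, the highest between any groups. Those of Trex1-KO and Trex1-KO + SN-011 had -0.006, and the other pairs of groups -0.016 to 0.061. Whether same-numbered Trex1-KO and H151 libraries shared a mouse or culture was not tested. The main fit did not take the numbers as pairs. With the replicate number as a block, the calls over all genes were 2611 in Trex1-KO against WT, 412 with H151 and 436 with SN-011, and no call of the 9 genes changed. Tnfsf9 and Tnfsf13b, at 17 to 62 counts per library, had the fewest counts of the 9 genes.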
